A study of Mus musculus with 11 samples.

Results

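The mitochondrial protein import machinery was taken as the genes whose symbols begin with Timm or Tomm followed by a digit, together with Samm50, Dnajc19, Grpel1, Grpel2, Hspa9, Hspd1, Hspe1, Chchd4, Gfer, Pmpca and Pmpcb. These names picked 32 genes of the 12787 genes in the expression table. The rule uses symbols alone and no measured values, but the group was chosen with earlier results of these data known. Timm23 and Pam16, which belong to the same machinery, were not analysed here.

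Male C57Bl6/J mice were fed a high fat diet with 60% fat for 20 weeks, either alone with vehicle (HFD, 5 mice) or with 0.06% w/w iodomethylcholine (HFD + IMC, 6 mice). IMC blocks the gut bacterial enzyme that turns choline into trimethylamine, and neither group carried a genetic change. RNA came from whole gonadal white adipose tissue, with 1 library per mouse, and a sixth vehicle library had been dropped at quality control before deposit. The comparison asks how adipose gene expression differed when this bacterial enzyme was blocked in mice on the same diet.

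Nearly all mitochondrial proteins are made in the cytosol and have to be threaded through the mitochondrial membranes. The TOM complex is the entry gate in the outer membrane, SAM inserts barrel-shaped proteins there, and small TIM chaperones guide hydrophobic precursors across the space between the membranes. TIM22 and TIM23 are the translocases of the inner membrane, a motor built around the chaperone Hspa9 pulls precursors into the matrix, the processing peptidase removes their targeting sequence, and the Hspd1 and Hspe1 chaperonin folds them. In white fat, where mitochondria take part in fatty acid synthesis and lipid turnover, this pathway supplies most of their protein content.

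With IMC, both subunits of the processing peptidase rose, as did 2 of 5 motor genes (Hspa9 and its exchange factor Grpel1) and 1 of 2 chaperonin genes (Hspd1). The receptors Tomm20 and Tomm70a rose at the entry gate, where the small subunit Tomm5 and the central receptor Tomm22 fell. Timm22, Timm17a and Gfer, an oxidase of the intermembrane space, also rose, while the SAM gene and the small TIM genes did not pass the test. Of the 32 genes, 10 were higher in HFD + IMC mice and 2 lower at an adjusted p under 0.05 (limma, Benjamini-Hochberg adjustment over all 12787 genes), and 20 did not pass. That is 31.2% higher and 6.25% lower, against 20% of all genes higher and 21.0% lower. The changes were small. Those that passed lay between 0.13 and 0.34 on the log2 scale in absolute size, and the median log2 fold change of the 32 genes was 0.04, against -0.03 over all genes. For 7 of the 32 genes every HFD + IMC mouse lay above every HFD mouse, and for 0 every one lay below, while 12.5% of all genes stood apart in the upward direction and 10.5% in the downward direction.

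**Figure D1:**
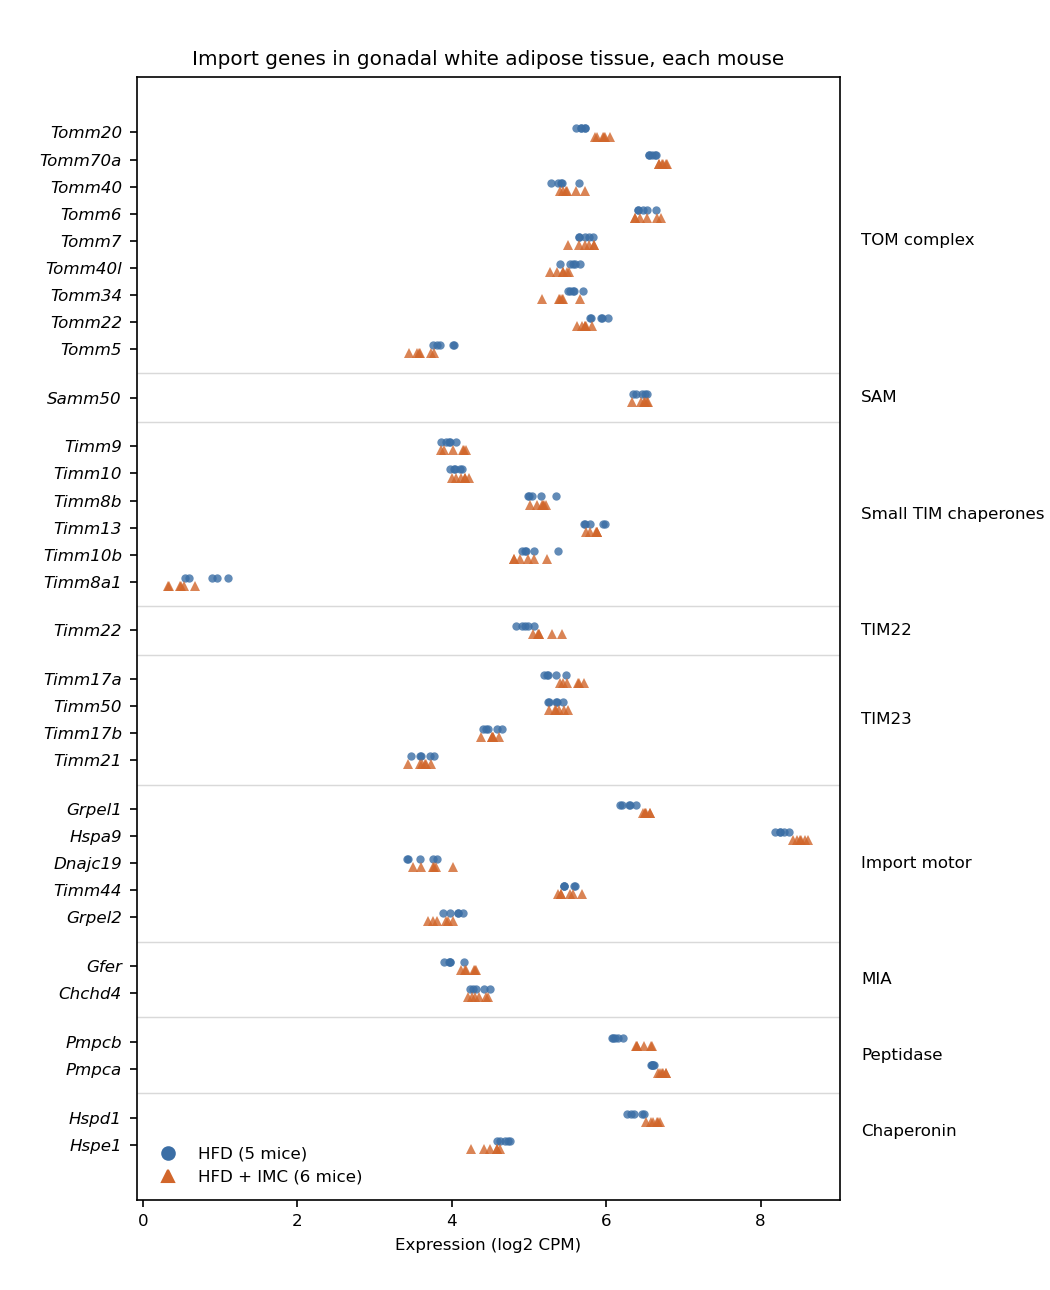
Each point is 1 mouse, the horizontal axis is expression in log2 CPM, where CPM is read counts scaled to a fixed library size, circles are the 5 HFD mice and triangles the 6 HFD + IMC mice, with genes grouped by their place in the import pathway. Pmpcb, Tomm20, Grpel1, Hspa9, Hspd1, Pmpca and Tomm70a are the 7 genes with all triangles to the right of all circles, and in the other 25 the groups overlap.

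Summed over the 32 genes, expression in the HFD mice was 1701, 1668, 1626, 1639 and 1727 CPM, and in the HFD + IMC mice it ran from 1697 to 1898 CPM. The sums overlapped, since the lowest HFD + IMC mouse lay below the highest 2 HFD mice. Reads counted on the genes analysed were alike in both groups, with 22320022 to 23635249 per HFD library and 22619505 to 25155366 per HFD + IMC library. These counts were recovered from the steps of the CPM values. The least expressed member, Timm8a1, had 31 reads in the mouse where it was lowest, and the most expressed, Hspa9, reached 9527.

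Markers of several cell types moved with the treatment. All 15 adipocyte markers were higher with IMC, their summed level rising from between 11191 and 16338 CPM in HFD mice to between 22332 and 26934 CPM, and 14 of 15 macrophage markers were lower, from between 17000 and 22269 CPM to between 9178 and 14533 CPM. All 6 mast cell markers and 5 of 8 fibroblast markers were lower as well, and 3 of 4 skeletal muscle markers were higher. Among the rest, 2 of 8 endothelial and 1 of 4 brown fat markers were higher, and 1 of 5 mesothelial markers was lower. Over all genes 20% were higher and 21.0% lower, so the endothelial, brown fat and mesothelial counts do not stand out from that background. None of the 7 lymphocyte or 8 epididymis markers sought were among the genes analysed. The part of these shifts in the changes of the import genes was not tested. In bulk tissue, fewer cells of a type and less RNA per cell cannot be told apart.

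Per kilobase of transcript, the members' levels in HFD mice covered a wide range. Tomm6, a small TOM subunit, was highest at 6.91 ± 0.09 log2 CPM per kilobase (SD, n = 5), followed by Hspa9 at 6.67 ± 0.07, the small TIM chaperone Timm8b at 6.06 ± 0.15, and Tomm7 and Timm13 at 5.56 ± 0.08 and 5.54 ± 0.13. Each of the first 3 exceeded the next gene by more than the SDs between mice, while Tomm7 and Timm13 did not differ beyond their spread. Levels were divided by the longest coding transcript, and the SDs do not cover error in that length. Timm17a (7280 bases) and Timm50 (1515 bases) had 5.30 and 5.33 log2 CPM in HFD mice, but 2.44 and 4.73 per kilobase. Which transcripts were expressed was not tested. Tomm6 also shares exonic bases on the same strand with Gm21981, which was not among the genes analysed. Grpel2 at 2.02 ± 0.10 and Timm8a1 at 0.31 ± 0.24 were lowest. Both have a near-identical locus elsewhere, and reads that fit both loci cannot be assigned to them. Between neighbours in the order, 16 of the 31 gaps were no larger than the larger of the SDs.

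**Figure D2:**
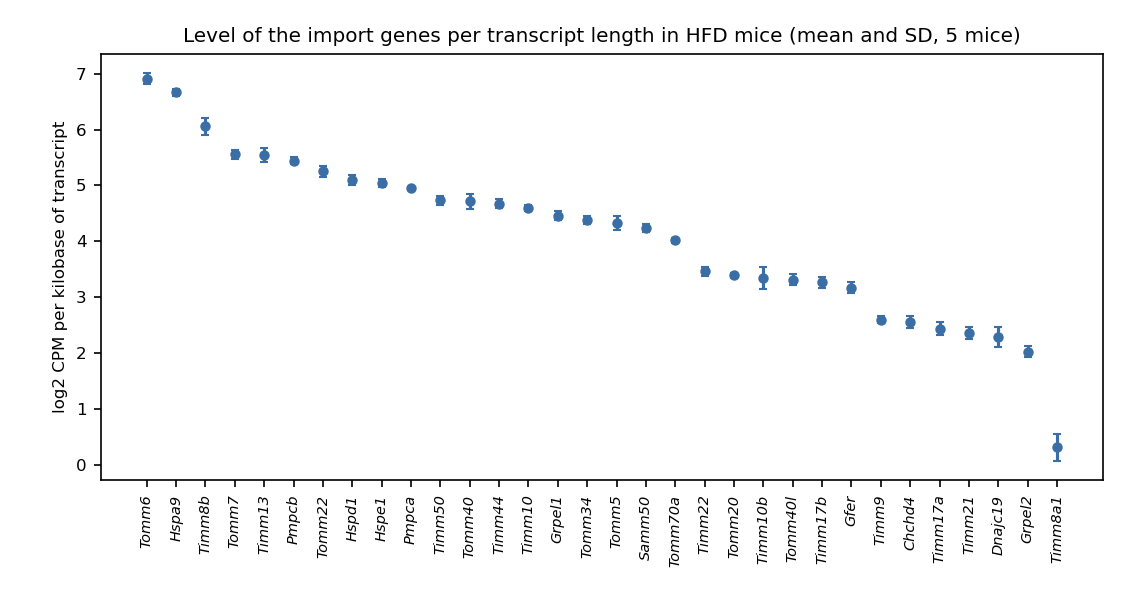
Points are the mean level of each import gene in the 5 HFD mice in log2 CPM per kilobase of the longest coding transcript, with bars for the SD, ordered from high to low. Tomm6 and Hspa9 lead at 6.91 and 6.67, and Timm8a1 stands alone at the bottom at 0.31.

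Of the 9 genes with Tomm symbols, which include the cytosolic cochaperone Tomm34, 2 were higher, 2 lower and 5 not past the threshold. Tomm20, the receptor that binds targeting presequences, gave 5.68, 5.68, 5.73, 5.62 and 5.73 log2 CPM in the HFD mice, and 5.85, 5.97 and 6.06 as the lowest, median and highest of the HFD + IMC mice. Values listed with IMC for later genes are likewise the lowest, median and highest. For Tomm20, no HFD mouse reached any HFD + IMC mouse. The log2 fold change was 0.27 (adjusted p = 0.000641, SE 0.05), a 1.20-fold rise. Tomm20 has 4 near-identical loci elsewhere in the genome, so reads that fit these equally well cannot be assigned to it. Among the other members that passed, Hspd1, Timm17a and Gfer each have 1. Tomm70a, the receptor for carrier precursors bound by cytosolic chaperones, went from 6.60 ± 0.05 (SD, n = 5) to 6.73 ± 0.04 (SD, n = 6), again with no overlap, a log2 fold change of 0.14 (adjusted p = 0.0140, SE 0.04). This call was lost when trends with transcript length and GC content were removed across all genes (0.11, adjusted p = 0.0627).

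Tomm5, a small subunit that sits beside the pore, moved the other way. Its values were 4.02, 4.03, 3.84, 3.76 and 3.81 log2 CPM in HFD mice and ran from 3.45 through a median of 3.59 to 3.77 in HFD + IMC mice. The groups met only at the edge, where the highest HFD + IMC mouse passed the lowest HFD mouse. Its log2 fold change was -0.28 (adjusted p = 0.0135, SE 0.08). Tomm22, which holds the complex together and passes precursors from the receptors to the pore, gave 6.02, 5.81, 5.95, 5.79 and 5.94 in HFD mice and 5.63, 5.73 and 5.81 as lowest, median and highest with IMC. Here a single HFD + IMC mouse was above the lowest 2 HFD mice, and the log2 fold change was -0.18 (adjusted p = 0.0164, SE 0.05).

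Tomm7, a small subunit, gave 5.83, 5.77, 5.65, 5.66 and 5.72 in HFD mice and 5.50, 5.76 and 5.85 with IMC, with a log2 fold change of 0.00 and the highest adjusted p of all the members (0.986). The pore itself, Tomm40, had a log2 fold change of 0.09 (adjusted p = 0.333, SE 0.07) and its paralog Tomm40l one of -0.13 (adjusted p = 0.0894, SE 0.06). Tomm34 had -0.16 (adjusted p = 0.0851, SE 0.07), and Tomm6 had 0.02 (adjusted p = 0.854).

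**Figure D3:**
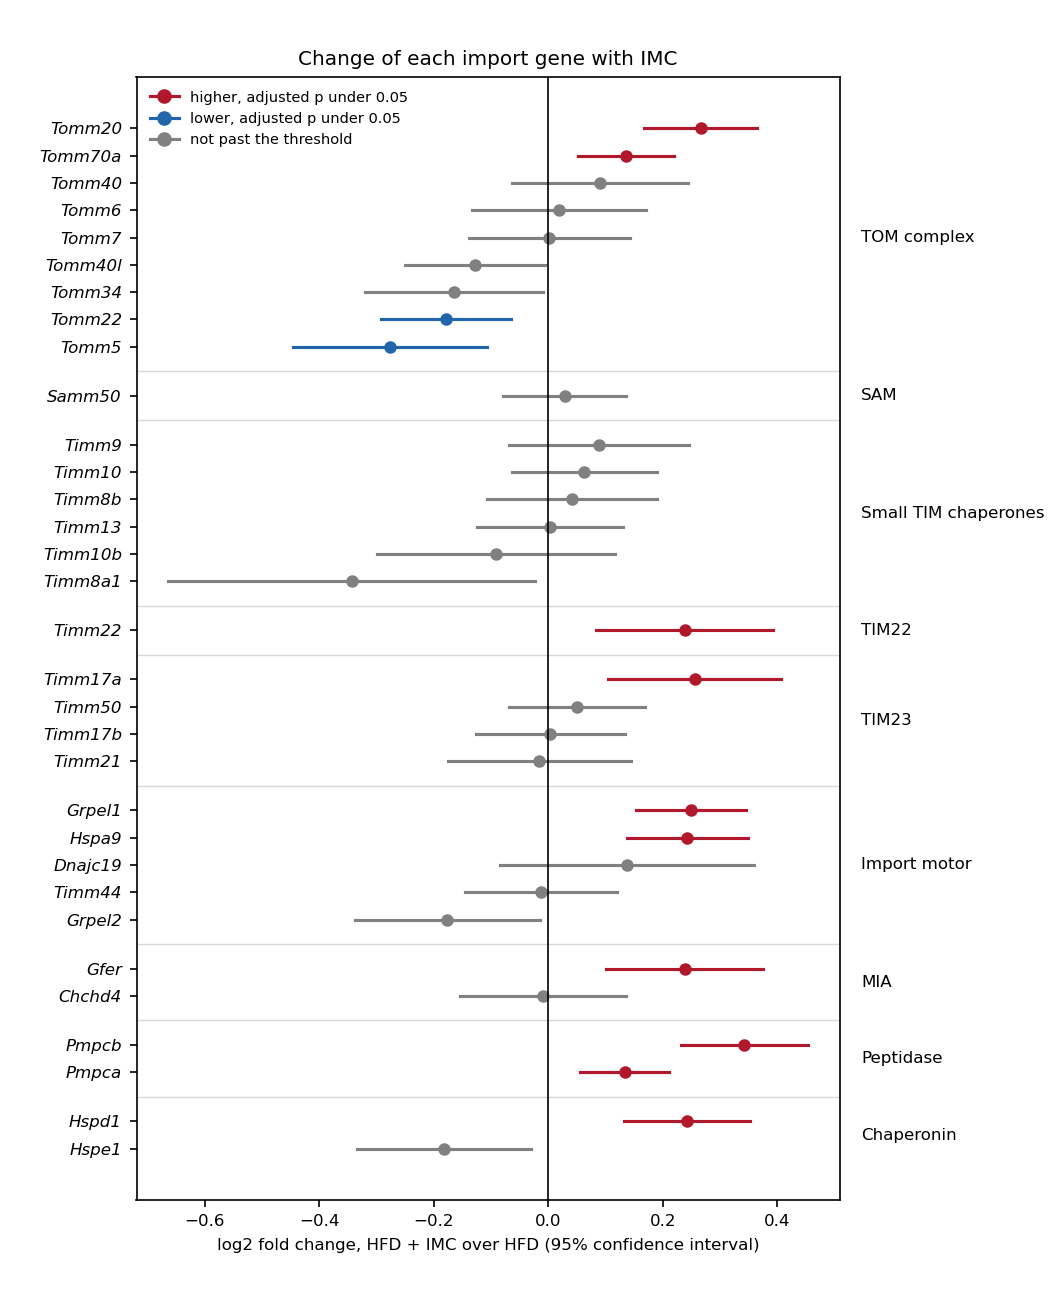
Points are the log2 fold change of each import gene (HFD + IMC over HFD) and lines its 95% confidence interval from limma, red where the gene was higher and blue where it was lower at an adjusted p under 0.05, grey otherwise. Pmpcb is highest at 0.34, Tomm5 and Tomm22 are the blue points at -0.28 and -0.18, and the widest interval belongs to Timm8a1.

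Neither the SAM gene nor any small TIM gene passed the test. Samm50, the core of the SAM complex, gave 6.47, 6.35, 6.39, 6.53 and 6.51 in HFD mice and 6.34, 6.50 and 6.54 with IMC. The ranges lay on top of each other, with a log2 fold change of 0.03 (adjusted p = 0.673, SE 0.05). Of the 6 small TIM genes 0 passed in either direction by limma, 1 of them at an unadjusted p under 0.05, and the log2 fold changes of Timm9, Timm10, Timm10b, Timm8b and Timm13 lay between -0.09 and 0.09. Timm8a1, a scarce member of that family, gave 0.96, 0.59, 0.89, 1.10 and 0.54 in HFD mice and 0.33, 0.49 and 0.67 with IMC. Its log2 fold change of -0.34 (adjusted p = 0.0817, SE 0.15) had the largest SE of the members, and the HFD mice themselves spread over more than the difference. Timm8a1 passed as lower without HFD mouse 5 (-0.41, adjusted p = 0.0476) and in the limma fit without a trend (adjusted p = 0.0234), where 3 members were lower.

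The disulfide relay that traps cysteine-rich proteins between the membranes has 2 genes here. Gfer, the sulfhydryl oxidase that recharges the relay, gave 3.97, 3.96, 3.98, 3.90 and 4.16 in HFD mice and 4.12, 4.24 and 4.32 with IMC. A single HFD mouse reached into the HFD + IMC range, and the log2 fold change was 0.24 (adjusted p = 0.00962, SE 0.06). Its partner Chchd4, the oxidoreductase that meets the incoming protein, gave 4.49, 4.41, 4.28, 4.24 and 4.32 against 4.21, 4.33 and 4.47, a log2 fold change of -0.01 (adjusted p = 0.927, SE 0.07).

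The inner membrane translocases each held 1 gene that rose. Timm22, the channel that inserts carrier proteins, gave 4.99, 4.84, 4.95, 4.91 and 5.07 in HFD mice and 5.05, 5.13 and 5.43 with IMC, a log2 fold change of 0.24 (adjusted p = 0.0177, SE 0.07). The highest HFD mouse lay just above the lowest HFD + IMC mouse. Timm17a, a core subunit of the presequence translocase TIM23, gave 5.24, 5.35, 5.24, 5.20 and 5.48 against 5.40, 5.57 and 5.71, a log2 fold change of 0.26 (adjusted p = 0.0109, SE 0.07), with 1 HFD mouse inside the HFD + IMC range. Its paralog Timm17b, encoded on chromosome X, gave 4.66, 4.45, 4.48, 4.41 and 4.59 against 4.39, 4.53 and 4.61. That is a log2 fold change of 0.00 (adjusted p = 0.972, SE 0.06). Timm50, the receptor subunit of TIM23, and Timm21, which links TIM23 to the TOM complex, had log2 fold changes of 0.05 (adjusted p = 0.487) and -0.02 (adjusted p = 0.884).

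Of the 5 motor genes, 2 rose and 3 did not pass. Hspa9, the mitochondrial Hsp70 that pulls precursors inward, gave 8.25, 8.37, 8.19, 8.30 and 8.26 in HFD mice and 8.42, 8.51 and 8.62 with IMC. The groups stood apart, and the log2 fold change was 0.24 (adjusted p = 0.00177, SE 0.05). Grpel1, the nucleotide exchange factor that resets Hspa9, gave 6.30, 6.31, 6.18, 6.21 and 6.38 against 6.48, 6.51 and 6.57, again with no overlap (log2 fold change 0.25, adjusted p = 0.000869, SE 0.04). Grpel1 shares 411 exonic bases on the opposite strand with Tada2b, which had a log2 fold change of 0.30 (adjusted p = 0.0158, SE 0.09). Its paralog Grpel2 gave 4.15, 4.08, 4.09, 3.98 and 3.89 against 3.70, 3.87 and 4.02. The log2 fold change of Grpel2 was -0.18 (adjusted p = 0.0780, SE 0.08). Dnajc19, a J-protein of the motor, and Timm44, which tethers Hspa9 to the channel, had 0.14 (adjusted p = 0.306, SE 0.10) and -0.01 (adjusted p = 0.887, SE 0.06).

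The processing peptidase, which cuts off the targeting sequence in the matrix, was the only role with more than 1 gene in which every gene rose. Pmpcb, its catalytic subunit, had the largest change among the members that passed. It gave 6.08, 6.16, 6.08, 6.12 and 6.22 in HFD mice and 6.39, 6.44 and 6.59 with IMC. The gap between the groups was wider than the whole HFD range, and the log2 fold change was 0.34 (adjusted p = 0.000271, SE 0.05), a 1.27-fold rise. Pmpca, the subunit that recognises the substrate, gave 6.59, 6.58, 6.60, 6.60 and 6.62 against 6.67, 6.73 and 6.78. The HFD values had an SD of 0.02 (n = 5), the groups stood apart, and the log2 fold change was 0.13 (adjusted p = 0.0101, SE 0.04). Pmpca shares 874 exonic bases on the opposite strand with Inpp5e, which had a log2 fold change of -0.06 (adjusted p = 0.330, SE 0.05).

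The promoter windows of Pmpcb and Tomm70a are shown because both genes rose and both windows hold the ETS motif CCGGAAGT, in capitals, the core bound by GABP, a regulator of many nuclear genes for mitochondrial proteins. Each window runs from 250 bases before to 50 bases after the RefSeq start on build GRCm38.p6, on the + strand, chr5:21736910-21737209 for Pmpcb and chr16:57121464-57121763 for Tomm70a.
Pmpcb: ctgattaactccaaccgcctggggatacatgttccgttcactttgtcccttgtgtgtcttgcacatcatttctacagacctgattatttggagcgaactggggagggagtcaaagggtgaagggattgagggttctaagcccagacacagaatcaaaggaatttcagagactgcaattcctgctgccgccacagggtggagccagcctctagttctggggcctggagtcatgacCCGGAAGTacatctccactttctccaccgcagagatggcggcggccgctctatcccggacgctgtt
Tomm70a: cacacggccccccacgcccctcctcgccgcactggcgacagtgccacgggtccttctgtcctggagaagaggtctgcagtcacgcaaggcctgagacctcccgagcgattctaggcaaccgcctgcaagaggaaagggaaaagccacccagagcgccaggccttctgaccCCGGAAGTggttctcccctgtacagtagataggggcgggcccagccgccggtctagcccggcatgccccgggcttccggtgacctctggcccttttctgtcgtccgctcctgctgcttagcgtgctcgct
The match begins 16 bases before the start in Pmpcb and 80 bases before it in Tomm70a. Sought on both strands, the motif was in 4 of the 30 windows found for 27 of the members and in 3.89% of all 32851 windows. The other 2 of those 4 windows belong to Timm10 and Timm10b, which did not pass the test. The windows of Tomm20, Grpel1, Hspd1, Gfer, Pmpca, Timm17a and Timm22, which also rose, hold no exact match to CCGGAAGT. Other forms of the ETS site were not sought, and no window was found for Hspa9. NRF1 (GCGCATGCG) was matched in 1 of the 30 windows, that of Timm13, against 1.75% of all windows. YY1 (AAGATGGCG) was matched in 1, that of Timm50, against 1.40%, and the ERR half-site (CAAGGTCA) in 1, that of Timm8b, against 1.56%. CREB (TGACGTCA) was matched in 0, against 1.79%. A match is only a description of these letters.

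The chaperonin genes parted from each other. Hspd1, the folding chamber, gave 6.46, 6.49, 6.36, 6.32 and 6.28 in HFD mice and 6.51, 6.63 and 6.70 with IMC, with no overlap and a log2 fold change of 0.24 (adjusted p = 0.00242, SE 0.05). Hspe1, its lid, gave 4.76, 4.73, 4.69, 4.58 and 4.63 against 4.25, 4.54 and 4.62. The Hspe1 values overlapped, with a log2 fold change of -0.18 (adjusted p = 0.0532, SE 0.07).

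Hspd1 and Hspe1 are neighbours on chromosome 1, transcribed away from each other, and their windows are shown because the genes sharing this short stretch did not move alike. In the Hspe1 window (chr1:55087898-55088197, + strand) the capitals mark the heat shock factor motif GAANNTTC. Of 2 Hspd1 windows, the inner one (chr1:55087883-55088182, - strand) shares 285 bases with it and the same single match, and the outer one (chr1:55088194-55088493, - strand), printed here, holds none of the motifs.
Hspe1: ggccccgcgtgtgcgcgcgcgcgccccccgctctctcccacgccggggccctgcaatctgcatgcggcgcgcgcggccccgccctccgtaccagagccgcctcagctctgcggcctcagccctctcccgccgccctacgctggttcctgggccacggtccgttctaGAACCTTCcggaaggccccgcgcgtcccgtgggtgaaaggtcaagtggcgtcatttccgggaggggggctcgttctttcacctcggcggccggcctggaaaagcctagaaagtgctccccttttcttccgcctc
Hspd1: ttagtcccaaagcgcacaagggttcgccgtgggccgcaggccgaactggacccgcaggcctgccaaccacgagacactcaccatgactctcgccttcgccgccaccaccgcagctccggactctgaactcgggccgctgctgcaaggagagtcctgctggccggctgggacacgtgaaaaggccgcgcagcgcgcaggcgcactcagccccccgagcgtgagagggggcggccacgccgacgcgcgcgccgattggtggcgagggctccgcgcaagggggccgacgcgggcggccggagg
The heat shock factor motif was in 3 of the 30 member windows, the third that of Timm9, and in 7.86% of all windows. Annotated exons of the neighbours overlap by 112 bases on opposite strands.

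Whether partners changed unequally was asked within each mouse, from the difference in log2 CPM between the genes of a pair, which does not depend on library scaling. Of 11 pairs of paralogs or partner subunits listed, 8 had both genes measured. The difference was compared between the groups by a two-sided exact permutation test over the 11 mice, whose smallest possible p is 0.00216, with adjustment over the 8 pairs. The pairs, too, were chosen with earlier results known. Hspd1 minus Hspe1 was 1.70 ± 0.04 (SD, n = 5) in HFD mice and 2.13 ± 0.12 (SD, n = 6) with IMC. Every HFD + IMC mouse, from 2.01 to 2.33, lay above every HFD mouse, from 1.65 to 1.75. The difference grew by 0.43 (SE 0.05, exact p = 0.00216, adjusted p = 0.00866), a 1.34-fold shift of the chamber over its lid in mRNA.

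Grpel1 minus Grpel2 went from 2.24 ± 0.16 to 2.66 ± 0.14, a shift of 0.42 (SE 0.09, exact p = 0.00433, adjusted p = 0.00866), with 1 HFD mouse above the lowest HFD + IMC mouse at 2.48. Pmpca minus Pmpcb fell from 0.46 ± 0.06 to 0.25 ± 0.09 with no overlap, a shift of -0.21 (SE 0.04, exact p = 0.00433, adjusted p = 0.00866), so the catalytic subunit rose more than its partner. Timm17a minus Timm17b rose by 0.25 (SE 0.08, exact p = 0.0130, adjusted p = 0.0173). Chchd4 minus Gfer changed by -0.25 (SE 0.07, exact p = 0.00866, adjusted p = 0.0139), and Timm8a1 minus Timm8b by -0.38 (SE 0.12, exact p = 0.00433, adjusted p = 0.00866). In these last 3 pairs the groups overlapped. Timm8b itself gave 5.35, 4.99, 5.04, 5.00 and 5.16 in HFD mice and 5.01, 5.18 and 5.22 with IMC. Like Hspd1, Timm17a and Gfer, the pair genes Hspe1, Grpel2 and Timm8a1 each have 1 near-identical locus elsewhere. Reads that fit that locus equally well cannot be assigned to these genes.

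For Tomm40 minus Tomm40l the shift of 0.22 (SE 0.11, exact p = 0.0606, adjusted p = 0.0693) did not pass, though it did without HFD mouse 5 (0.27, adjusted exact p = 0.0381) and with the length and GC trends removed (0.36, adjusted exact p = 0.00577). Timm9 minus Timm10, whose proteins form 1 chaperone ring, shifted by 0.03 (SE 0.06, exact p = 0.688).

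**Figure D4:**
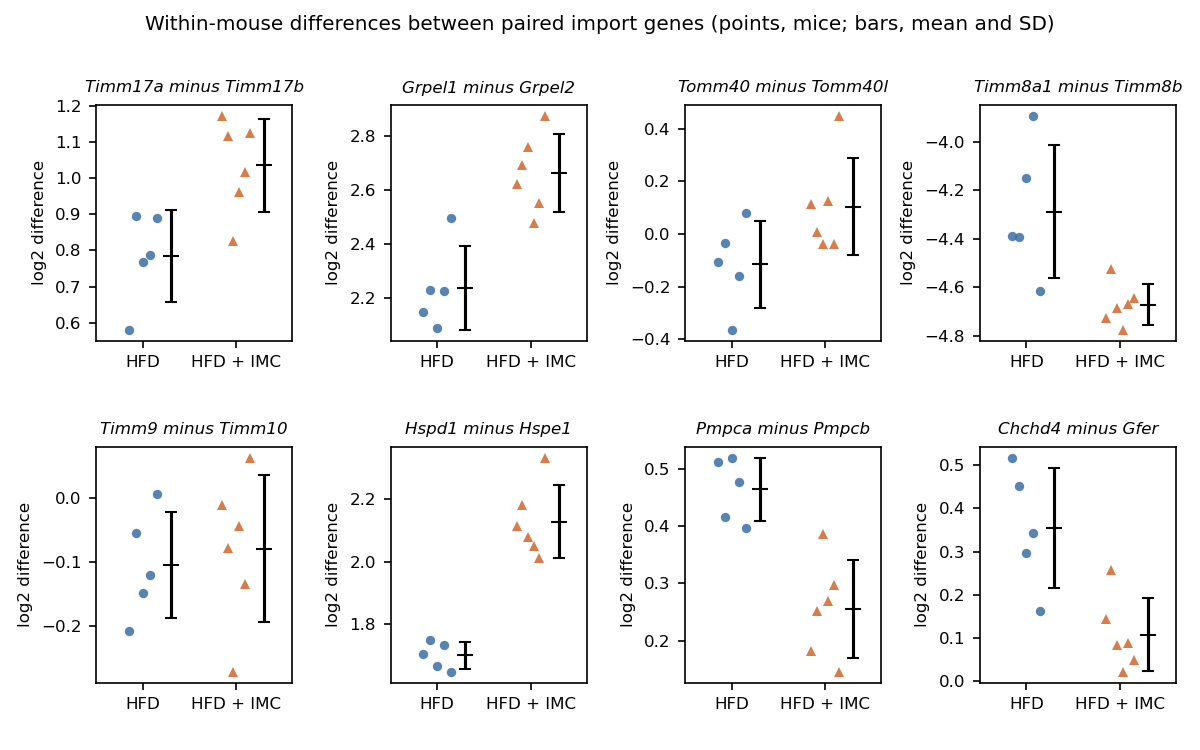
Each panel plots the within-mouse difference in log2 CPM between the genes of a pair (points, 5 HFD and 6 HFD + IMC mice; bars, mean and SD), each with its own vertical scale. Hspd1 minus Hspe1 and Pmpca minus Pmpcb are the panels where the groups do not overlap.

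The members are also described by transcript length, since the change over all genes varied with it. Of the 12 members whose longest coding transcript falls in the shortest sixth of all genes, up to 1664 bases, 1 was higher and 2 were lower, with a median log2 fold change of 0.01, and of all 2124 genes in that sixth 319 were higher and 588 (27.7%) lower. Of the 20 longer members, 9 were higher and 0 lower, with a median of 0.11, and of all longer genes 21.0% were higher and 19.6% lower, with a median of -0.02. Over all genes the median log2 fold change rose from -0.07 in the shortest sixth to 0.03 in the longest, and Spearman's rho with length was 0.13 over 12735 genes and 0.35 over the 32 members, given as a description since genes share the same libraries. The part of length in the members' changes was not tested. With length and GC trends removed, 11 of the 12 calls were kept, and Grpel2 and Tomm40l were added as lower and Tomm40 and Timm50 as higher.

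**Figure D5:**
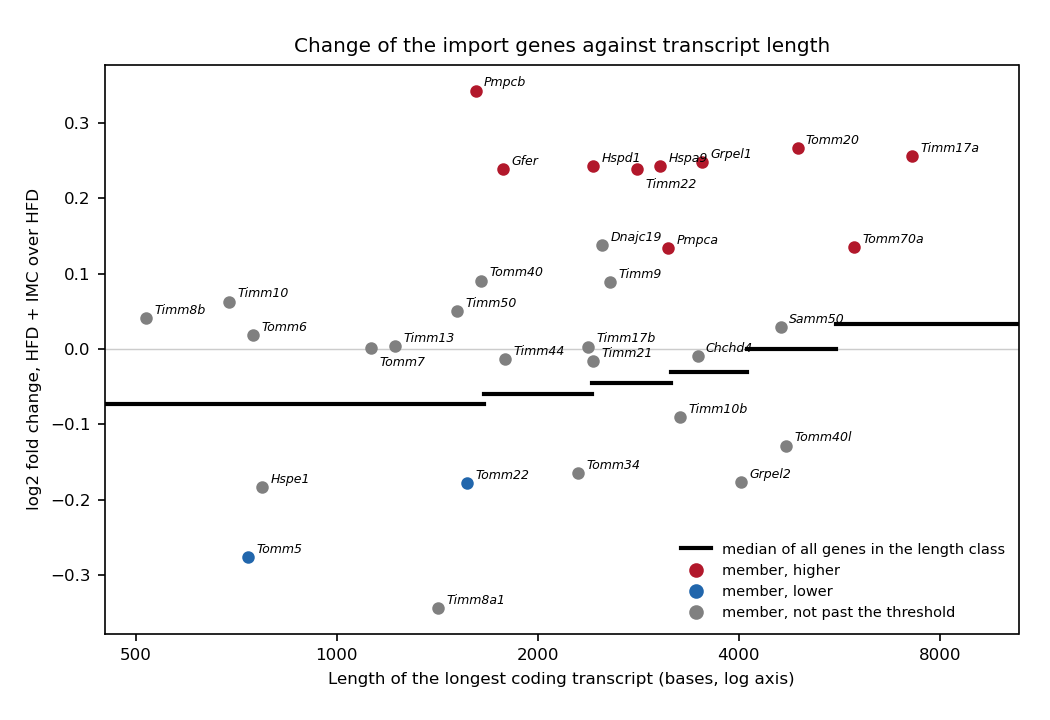
Each point is 1 import gene, placed by the length of its longest coding transcript in bases on a log axis and its log2 fold change (HFD + IMC over HFD), coloured by its call, and black lines are the medians of all genes in 6 length classes. Pmpcb, at 0.34, is the only gene called higher in the shortest class, which ends at 1664 bases and holds Tomm5 and Tomm22.

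Beside the import genes, other mitochondrial groups were counted in the same fit, without a test of the difference between groups, and each count stands beside the 20% of all genes that were higher and the 21.0% that were lower. Of 44 complex I genes 10 (22.7%) were higher and 0 lower, with a median log2 fold change of 0.05, and of 49 genes of complexes III to V 11 (22.4%) were higher and 4 lower (median 0.05). Of 76 mitochondrial ribosomal proteins 11 were higher and 7 lower (median 0.03), and of 39 mitochondrial carriers 17 were higher and 5 lower (median 0.13). Of 72 cytosolic ribosomal proteins 4 were higher and 53 lower, with a median of -0.29.

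Further genes of import and assembly, 20 in all, had 6 higher and 1 lower, with a median of 0.11. Xpnpep3, a peptidase that trims imported proteins after the first cut, rose by 0.67 (adjusted p = 6.17e-05, SE 0.08), and Trap1, the mitochondrial Hsp90, by 0.38 (adjusted p = 0.000201, SE 0.05). Of 11 mitochondrial protease genes 4 were higher and 1 lower (median 0.14). Lonp1, the matrix protease that clears damaged proteins, rose by 0.38 (adjusted p = 6.36e-05, SE 0.04), and Spg7, a subunit of an inner membrane protease, by 0.23 (adjusted p = 0.00104, SE 0.04). Of 7 genes of the MICOS complex, which shapes the inner membrane folds, 4 were higher and 0 lower (median 0.20), among them Immt (0.38, adjusted p = 0.000211, SE 0.05) and Chchd6 (0.39, adjusted p = 0.00694, SE 0.10).

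Of 13 genes of cytosolic chaperones and their partners, some of which hand precursors to the TOM receptors, 1 was higher and 3 lower, with a median of -0.05. The inducible Hsp70 genes Hspa1a and Hspa1b had log2 fold changes of -1.02 (adjusted p = 0.00166, SE 0.20) and -0.64 (adjusted p = 0.00309, SE 0.14). They are near-identical copies, so reads that fit both equally well cannot be assigned to either. Of 14 genes of the mitochondrial and integrated stress responses 7 were higher and 2 lower (median 0.22). The 2 genes with the smallest p were the serine synthesis genes Psat1 (0.62, adjusted p = 3.62e-05, SE 0.07) and Phgdh (1.02, adjusted p = 8.87e-05, SE 0.13). The 2 lower genes were Gdf15 (-0.83, adjusted p = 0.00609, SE 0.21) and Hsf1 (-0.24, adjusted p = 0.0120, SE 0.07). The regulators Atf4, Atf5 and Ddit3 did not pass. Of 12 regulators of mitochondrial biogenesis 0 were higher and 1 lower, with a median of -0.02. Myc, a growth regulator, fell by 0.44 (adjusted p = 0.000610, SE 0.07), and the mitochondrial RNA polymerase Polrmt had a log2 fold change of 0.14 (adjusted p = 0.0900, SE 0.06).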

How the data were processed

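Gonadal white adipose RNA of 11 mice was measured. The members and lists were chosen with earlier results of these data known, and so were the pairs. Per the study's methods, the authors trimmed directional reads with Trim Galore, checked them with FastQC, aligned them to mm10 with STAR using UCSC annotation, counted reads per gene, dropped low-count genes and applied upper quartile scaling with edgeR. The deposited values are log2 CPM per mouse, and the strand setting of the counting is not given in the sources used here. The deposited log2 fold change, mean log2 CPM, likelihood-ratio score, p-value and FDR columns hold the authors' own comparison and were not used.

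All 12787 genes were fitted with limma 3.58.1 (R 4.3.3; lmFit, eBayes with a trend, Benjamini-Hochberg adjustment, threshold 0.05), with group as the only factor. Mouse numbers follow accession order and pair nothing. Per the study's methods mice were group housed, with more than a single cage per condition, but the labels do not say which mice shared a cage. The tests treat each mouse as independent, and p-values measure the spread between these mice, not between cages. For chosen members, the value of each HFD mouse is given with the lowest, median and highest of the HFD + IMC mice. These are the member with the smallest p in each role, genes of pairs past the threshold and the member with the highest p. Members past the threshold with an absolute log2 fold change of at least 0.3 are included. Hspa9, Tomm5 and Tomm22 were added after their values were seen. From each related list the 2 genes with the smallest p are named. The further genes of the stress-response list were added after their values were seen. Scripts were tested on simulated data.

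Transcript lengths, overlaps and copies (at least 95% identity over 200 bases) come from GENCODE M21 and promoter windows from RefSeq, both on GRCm38. Of the members, 15 share exonic bases with another annotated gene and 8 have a near-identical locus elsewhere. Alternatives were total reads or median-of-ratios scaling, an added constant of 2 reads, limma voom on recovered reads, no trend, a mean log2 CPM of at least 1 and leaving out each mouse. Removal of length and GC trends was chosen after seeing the data.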

Additional observations from a re-analysis of the deposited data

How the results depend on the processing

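All 12 member calls were kept under each scaling, the added constant, voom, no trend, the filter and each left-out mouse, and 11 of 12 with length and GC trends removed, where Tomm70a was lost. No direction of a called value reversed. The count of lower members was less stable. It was 6 under total reads scaling (10 higher), where the median of all genes moved to -0.06 and Hspe1, Grpel2, Tomm34 and Tomm40l were added, 4 with length and GC trends removed and 3 without a trend. Leaving out single mice gave 2 to 4, the 4 arising without HFD mouse 5 and without HFD + IMC mouse 4. The Tomm40 minus Tomm40l shift was 0.36 with length and GC trends removed, past the threshold, and 0.15 to 0.27 with single mice left out. The cause was not tested. The other 7 pairs kept their side of the threshold. No paired analysis was possible because the labels give the mice no shared numbers. Depth limits Timm8a1 most, with 31 reads in its lowest mouse.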
